A study of Mus musculus with 9 samples.

Results

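The transcripts of fatty acid binding proteins and long-chain acyl-CoA synthetases were examined in the mouse hippocampus at postnatal day 21, after exposure to perfluorooctane sulfonate (PFOS) through milk. PFOS is a persistent perfluorinated surfactant whose shape resembles that of a fatty acid. The set holds 10 genes, taken as a list of symbols because PFOS binds proteins of these families: Fabp3, Fabp5 and Fabp7, Acsl1, Acsl3, Acsl4, Acsl5, Acsl6 and Acsbg1, and the acyl-CoA binding protein gene Dbi. All 10 were among the 23412 gene symbols of the table, and all 10 were among the 14336 genes tested. Each gene was measured in 9 wild-type (WT) samples of bulk tissue, in 3 groups of 3. The PFOS P1-7 pups nursed on days 1 to 7 from dams that were given 1 mg of PFOS per kg of body weight daily by gavage. The PFOS P8-14 pups nursed on days 8 to 14 from dams on the same daily dose. The control samples were labelled sham. The dose was given to the dam, and the labels give no PFOS level in the pups. The labels do not say whether samples came from separate animals or litters, so the p-values reflect sample-to-sample spread alone, and some of that spread may be technical.

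Long-chain fatty acids are poorly soluble and move through the cytosol bound to small carrier proteins of the FABP family. Acyl-CoA synthetases join them to coenzyme A, which traps them in the cell and activates them for membrane lipids, storage or oxidation, and Dbi binds the acyl-CoA products. In the brain these steps supply the polyunsaturated lipids of neuronal and glial membranes, and Fabp7 is best known as a marker of radial glia and astrocytes, Fabp5 is found in both neurons and glia, and Fabp3 is mainly neuronal.

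Values are TPM, a transcript level scaled for transcript length and for the total of the library, and differences are on the log2(TPM + 1) scale from a limma fit over all 9 samples and all tested genes. TPM keep no sequencing depth, which is therefore unknown. The libraries stood apart in 3 ways. The summed level of 12 choroid plexus markers was 9809 to 11980 TPM in 5 libraries and 52.6 to 131.3 TPM in the other 4, which came from all 3 groups (PFOS P1-7 replicate 2, PFOS P8-14 replicate 3 and control replicates 1 and 2). Library deviations ran with transcript length, with Spearman's rho across genes of 0.13 to 0.48 in PFOS P1-7 libraries and -0.20 to 0.31 in PFOS P8-14 libraries, against 0.19 in control replicate 1 and -0.42 and -0.52 in control replicates 2 and 3. Genes are not independent replicates. Control replicate 1 stood apart from the other two controls and received the lowest library weight in limma (0.248). Its rho lay within the range of the exposed libraries, while control replicates 2 and 3 had the lowest rho of all 9 libraries. A fit without control replicate 1 therefore sets the exposed groups against those 2 controls alone. The length trend touches these families directly, because the longest annotated transcripts of Fabp3, Fabp5, Fabp7 and Dbi are 569 to 987 bases and those of the synthetases 2880 to 5807 bases. The differences from control of the 3 synthetase genes and 2 carrier genes with an unadjusted p below 0.05 are therefore also given with the length trend removed and without control replicate 1. Many genes passed an adjusted p of 0.05 in limma without control replicate 1. They were 2658 of all 14336 tested genes in PFOS P1-7 and 1741 in PFOS P8-14. The tissue label was checked on neuron and astrocyte markers. The vesicular glutamate transporter gene Slc17a7 stood at 1302 to 1628 TPM and the astrocyte water channel gene Aqp4 at 54.2 to 71.4 TPM over all libraries. Prox1, a marker of dentate granule neurons, was at 45.7 to 51.5 TPM in PFOS P1-7 and 40.2 to 48.4 TPM in PFOS P8-14, and at 49.7, 27.4 and 17.1 TPM in control replicates 1, 2 and 3.

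Dbi was the most abundant of the 10 transcripts, at 1034 ± 186.2 TPM (SD over 9 libraries), above 99.2% of tested genes. Fabp5 followed at 589.5 ± 35.2 TPM and Fabp3 at 260.9 ± 22.6 TPM, and these 3 levels did not overlap. Fabp7 (144.7 ± 28.6 TPM), Acsl6 (140.7 ± 27.1 TPM), Acsl3 (126.9 ± 15.7 TPM) and Acsbg1 (110.8 ± 14.0 TPM) formed a middle tier in which neighbouring ranges overlapped. Acsl4 (41.0 ± 3.995 TPM), Acsl1 (37.9 ± 4.31 TPM) and Acsl5 (35.9 ± 3.58 TPM) formed the lowest tier, also with overlapping ranges. Even Acsl5, the lowest, was above 64.6% of tested genes.

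**Figure D1:**
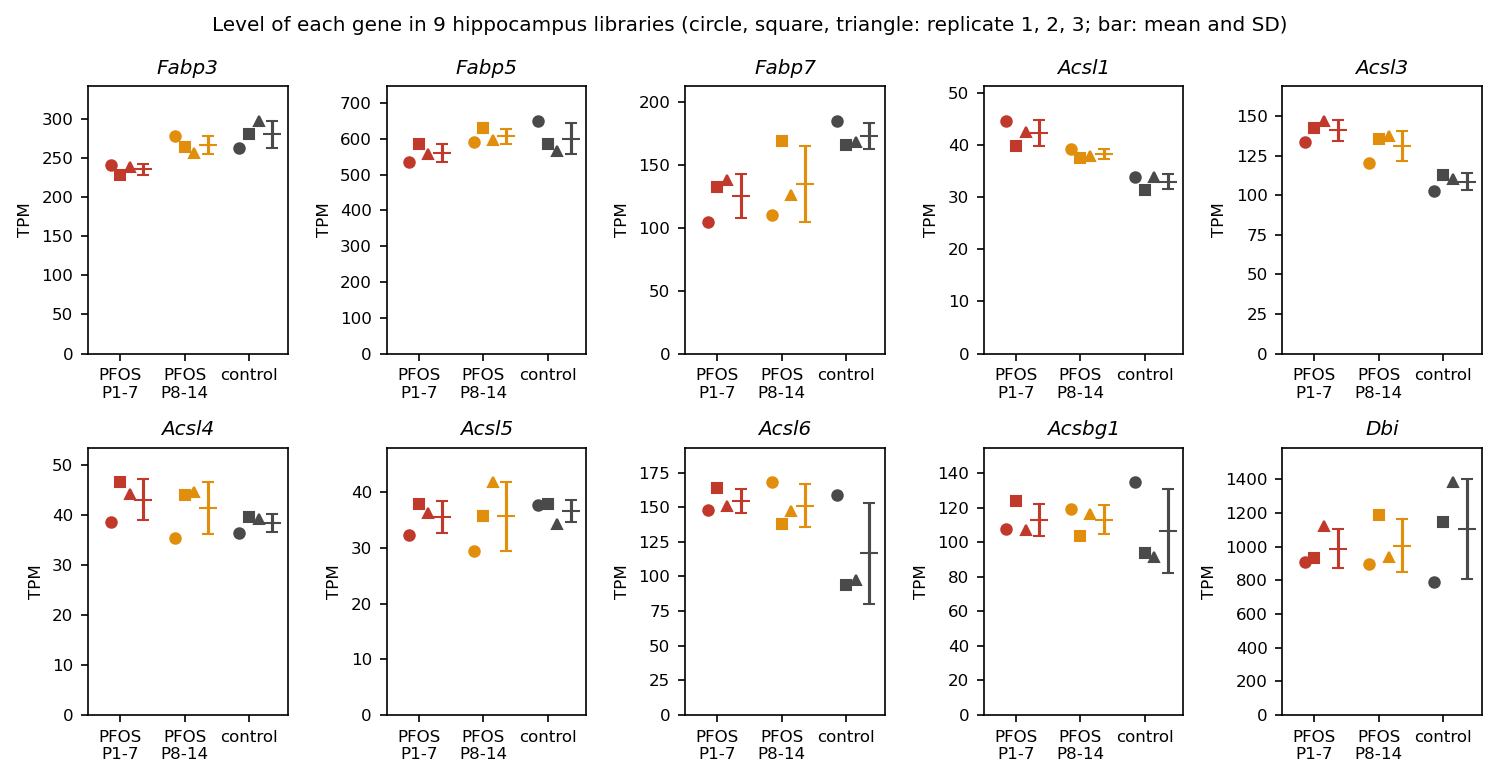
Level of each of the 10 genes in TPM (vertical axis, from 0) in the PFOS P1-7, PFOS P8-14 and control libraries, with circle, square and triangle for replicates 1, 2 and 3 and a bar for the mean and SD of each group. Acsl1 and Acsl3 were higher in all 6 exposed libraries than in any control, while Acsl6 and Acsbg1 had 1 control library far from the other two. The Dbi controls were spread from 791 to 1382 TPM.

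After exposure on days 1 to 7, the fatty acid binding genes Fabp3 and Fabp7 had lower values than control, with log2 differences of -0.25 and -0.47, and the synthetase genes Acsl1, Acsl3 and Acsl6 had higher values, with 0.35, 0.37 and 0.44. After exposure on days 8 to 14 the same 3 synthetase genes again had higher values than control, with 0.21, 0.27 and 0.41, and Fabp7 had a lower one, with -0.38, while Fabp3 stood closer to control. None of these differences passed an adjusted p of 0.05 in limma. In PFOS P1-7 against control 0 of 14336 genes passed (0%) and in PFOS P8-14 against control likewise 0 of 14336 (0%). At an unadjusted p below 0.05 there were 5 of the 10 genes in PFOS P1-7 (3 higher, 2 lower), beside 2627 of all tested genes (18.3%, with 12.5% higher and 5.79% lower). In PFOS P8-14 there were 4 of the 10 (3 higher, 1 lower), beside 1573 of all tested genes (11%, with 6.33% higher and 4.65% lower). Over all tested genes the calls before adjustment split into 1797 higher and 830 lower in PFOS P1-7 and 907 higher and 666 lower in PFOS P8-14. With median-of-ratios scaling the split turned to 1034 higher and 1417 lower and to 607 higher and 1000 lower, and the 10 genes had 3 higher and 3 lower in PFOS P1-7 and 2 higher and 1 lower in PFOS P8-14. The exposed and control ranges did not overlap for 4 of the 10 genes in PFOS P1-7 (2 higher, 2 lower), beside 18.8% of all tested genes, with 12.3% higher and 6.56% lower. In PFOS P8-14 this held for 2 of the 10, both higher, beside 13.3% of all tested genes, with 7.31% higher and 5.99% lower. The median difference of the 10 genes was 0.03 in PFOS P1-7 against 0.09 over all tested genes, and 0.06 in PFOS P8-14 against 0.06 over all tested genes. The exposed groups share the same 3 controls, so their differences from control are not independent of each other.

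Fabp3, the heart-type carrier that is also made by neurons, had 242, 228 and 238 TPM in PFOS P1-7 and 278, 265 and 256 TPM in PFOS P8-14, against 263, 281 and 297.5 TPM in control. All 3 PFOS P1-7 libraries lay below all 3 controls, and the PFOS P8-14 libraries overlapped with control. The mean was 235.7 ± 7.16 TPM in PFOS P1-7 and 266.4 ± 11.2 TPM in PFOS P8-14, against 280.5 ± 17.3 TPM in control (SD, n = 3 each). The difference was -0.25 ± 0.07 (SE, unadjusted p = 0.00612, adjusted p = 0.198 in limma) for PFOS P1-7 and -0.07 ± 0.07 (adjusted p = 0.657) for PFOS P8-14. With the length trend removed these became -0.11 and 0.04, so the sign for PFOS P8-14 turned. Without control replicate 1 the difference was -0.29 (adjusted p = 0.0203 in limma) for PFOS P1-7 and -0.12 (adjusted p = 0.272) for PFOS P8-14. With both changes together it was -0.08 (adjusted p = 0.557 in limma) for PFOS P1-7 and 0.07 for PFOS P8-14.

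Fabp7, the brain-type carrier with high affinity for docosahexaenoic acid, had 105.1, 133 and 138 TPM in PFOS P1-7 and 110.5, 169 and 126 TPM in PFOS P8-14, against 185, 166 and 169 TPM in control. Every PFOS P1-7 library was below every control, and of the PFOS P8-14 libraries replicate 2 lay within the control range and the other two below it. Fabp7 averaged 125.4 ± 17.7 TPM in PFOS P1-7 and 135.2 ± 30.3 TPM in PFOS P8-14, against 173.5 ± 10.3 TPM in control (SD, n = 3 each). The difference was -0.47 ± 0.15 (SE, unadjusted p = 0.0120, adjusted p = 0.2099 in limma) for PFOS P1-7 and -0.38 ± 0.15 (unadjusted p = 0.0344, adjusted p = 0.443) for PFOS P8-14. It kept its sign but was smaller with the length trend removed, at -0.35 and -0.27, and without control replicate 1 it was -0.43 (adjusted p = 0.116 in limma) and -0.33 (adjusted p = 0.234). Bulk tissue cannot tell fewer Fabp7-expressing cells from less Fabp7 RNA per cell. Summed markers of 12 astrocyte genes were 4487 to 4859 TPM in PFOS P1-7 and 4247 to 4702 TPM in PFOS P8-14, against 3705 to 4972 TPM in control, and summed markers of progenitors and neuroblasts (8 genes) were 258.9 to 269.5 TPM in PFOS P1-7 and 238.4 to 264.8 TPM in PFOS P8-14, against 243.3 to 309.9 TPM in control. Both overlapped between groups, and none of these markers was at 0 throughout. With the astrocyte marker mean as a covariate the Fabp7 differences were -0.46 and -0.37. That covariate does not measure the number of Fabp7-expressing cells, which was not tested.

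Fabp5, the epidermal-type carrier, showed no separation from control. It had 536, 586 and 558 TPM in PFOS P1-7 and 592, 632 and 597 TPM in PFOS P8-14, against 650.5, 586 and 567 TPM in control. Its differences of -0.10 ± 0.08 (95% interval -0.27 to 0.07) and 0.02 ± 0.08 (-0.16 to 0.19) spanned 0, and their signs turned in some settings. The fatty acid binding genes together summed to 882.6 to 947.0 TPM in PFOS P1-7 and 979.9 to 1065 TPM in PFOS P8-14, against 1033 to 1099 TPM in control. Endothelial cells also make Fabp5. The summed level of 8 endothelium markers was 270.6 to 323.7 TPM in PFOS P1-7 and 301.3 to 312.3 TPM in PFOS P8-14, against 329.3 to 361.4 TPM in control. Yet 5 of these 8 markers were higher than control in each exposed group, with median differences of 0.04 and 0.06. In each group 1 marker was lower at an unadjusted p below 0.05 in limma. The part of endothelium in the Fabp5 levels was not tested.

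Acsl1, the synthetase best known for feeding fatty acids to oxidation and storage in muscle, liver and fat, had 44.7, 39.8 and 42.5 TPM in PFOS P1-7 and 39.3, 37.5 and 37.9 TPM in PFOS P8-14, against 33.9, 31.3 and 33.8 TPM in control. All 6 exposed libraries were above all 3 controls. Its means were 42.3 ± 2.42 TPM in PFOS P1-7 and 38.2 ± 0.956 TPM in PFOS P8-14, against 33.0 ± 1.45 TPM in control (SD, n = 3 each), or 1.28-fold and 1.16-fold the control mean. The difference was 0.35 ± 0.08 (SE, unadjusted p = 0.00109, adjusted p = 0.181 in limma) for PFOS P1-7 and 0.21 ± 0.08 (unadjusted p = 0.0220, adjusted p = 0.426) for PFOS P8-14. With the length trend removed it was 0.22 and 0.12. Without control replicate 1 it was 0.37 (adjusted p = 0.0178 in limma) for PFOS P1-7 and 0.23 (adjusted p = 0.0967) for PFOS P8-14.

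Acsl3, a synthetase of the endoplasmic reticulum and of nascent lipid droplets, had 133, 142 and 147 TPM in PFOS P1-7 and 120.3, 136 and 137 TPM in PFOS P8-14, against 102.8, 113 and 110.1 TPM in control. Here too the lowest exposed library was above the highest control. Acsl3 averaged 140.9 ± 6.85 TPM in PFOS P1-7 and 131.1 ± 9.40 TPM in PFOS P8-14, against 108.6 ± 5.27 TPM in control, or 1.3-fold and 1.21-fold the control mean. The difference was 0.37 ± 0.08 (SE, unadjusted p = 0.000833, adjusted p = 0.181 in limma) for PFOS P1-7 and 0.27 ± 0.08 (unadjusted p = 0.00670, adjusted p = 0.426) for PFOS P8-14. It was 0.24 and 0.18 with the length trend removed, and without control replicate 1 it was 0.33 (adjusted p = 0.0229 in limma) and 0.23 (adjusted p = 0.0888). In the F test across the 3 groups Acsl3 had the smallest p of the 10 genes (0.00233, adjusted p = 0.362 in limma), and it overlaps Utp14b on the same strand, so some reads could belong to either gene.

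Acsl1 and Acsl3 had higher values than control in all 6 exposed libraries, and Fabp3 and Fabp7 had lower ones in the 3 PFOS P1-7 libraries. For these 4 genes the bases before their annotated starts are printed, from RefSeq on GRCm38.p6 and on the plus strand, 5′ to 3′. RefSeq places Acsl1 at chr8:46471037-46536051, Acsl3 at chr1:78657825-78707743, Fabp3 at chr4:130308738-130315463 and Fabp7 at chr10:57784923-57788450. Capitals mark matches, on either strand, to 5 short motifs: the GC box GGGCGG, the CCAAT box CCAAT, the sterol regulatory element TCACNCCAC, the nuclear receptor half-site AGGTCA and the TATA box TATAAA. A match on the other strand appears as the reverse complement of the motif. The stretches are Acsl1 at chr8:46470787-46471036 (first start) and chr8:46490716-46490965 (second start), Acsl3 at chr1:78657575-78657824, Fabp3 at chr4:130308488-130308594 and Fabp7 at chr10:57784673-57784880, where the Fabp stretches end before the earliest GENCODE start of the gene.
Acsl1, first start: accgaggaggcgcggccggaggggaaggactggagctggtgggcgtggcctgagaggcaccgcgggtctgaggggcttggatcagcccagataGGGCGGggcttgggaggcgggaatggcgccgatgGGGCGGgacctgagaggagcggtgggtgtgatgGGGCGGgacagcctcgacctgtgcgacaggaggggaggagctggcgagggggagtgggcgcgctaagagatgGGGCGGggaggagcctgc
Acsl1, second start: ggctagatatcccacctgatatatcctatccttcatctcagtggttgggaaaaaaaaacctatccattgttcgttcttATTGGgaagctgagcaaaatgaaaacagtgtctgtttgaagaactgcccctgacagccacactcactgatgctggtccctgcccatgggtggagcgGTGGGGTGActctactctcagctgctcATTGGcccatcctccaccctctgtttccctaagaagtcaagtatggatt
Acsl3: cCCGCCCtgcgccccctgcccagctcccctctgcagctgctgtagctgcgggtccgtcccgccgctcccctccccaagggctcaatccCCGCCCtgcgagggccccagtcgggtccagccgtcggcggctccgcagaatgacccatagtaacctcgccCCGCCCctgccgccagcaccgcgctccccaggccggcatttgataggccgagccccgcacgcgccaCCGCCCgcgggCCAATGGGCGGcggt
Fabp3: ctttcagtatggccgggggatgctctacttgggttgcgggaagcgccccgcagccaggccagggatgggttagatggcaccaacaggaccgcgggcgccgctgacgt
Fabp7: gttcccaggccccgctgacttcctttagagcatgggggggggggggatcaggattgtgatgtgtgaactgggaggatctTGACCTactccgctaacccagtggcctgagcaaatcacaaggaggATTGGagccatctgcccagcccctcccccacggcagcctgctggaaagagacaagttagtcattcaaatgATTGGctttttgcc
The first start of Acsl1 held 4 GC boxes and that of Acsl3 held 5 with 1 CCAAT box, which lies directly before the last GC box without overlapping it. The second start of Acsl1 held 1 sterol regulatory element and 2 CCAAT boxes. Fabp7 held 1 nuclear receptor half-site and 2 CCAAT boxes, and Fabp3 held none of the 5 motifs in this window. Of 32851 promoters in the same table, over the 250 bases before the start, 32.7% held a GC box, 33.8% a CCAAT box, 14.0% the half-site, 12.4% the TATA box and 1.05% the sterol element. The window of the first Acsl1 start was 72.0% G and C bases and that of Acsl3 75.6%, against a median of 52.4% over the promoters. Motifs were also matched at genes of the set that are not printed. Acsl4 and Acsl6 held GC boxes, Acsl6 held the half-site, and Acsl5, Acsl6, Acsbg1 and Dbi held CCAAT boxes. All these matches describe the letters and not binding. RefSeq promoters were matched for 9 of the 10 genes, and Fabp5 is named only.

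Acsl6, a synthetase of neurons and astrocytes that favours docosahexaenoic acid, had 148, 164 and 151 TPM in PFOS P1-7 and 168, 138 and 147 TPM in PFOS P8-14, against 159, 93.8 and 97.7 TPM in control. Control replicates 2 and 3 lay below every exposed library, while control replicate 1 lay among them. Its means of 154.3 ± 8.62 TPM in PFOS P1-7 and 151.0 ± 15.4 TPM in PFOS P8-14, against 116.7 ± 36.3 TPM in control, gave differences of 0.44 ± 0.18 (SE, unadjusted p = 0.0317, adjusted p = 0.242 in limma) and 0.41 ± 0.18 (unadjusted p = 0.0441, adjusted p = 0.448). Without control replicate 1 they were 0.68 (adjusted p = 0.00554) and 0.65 (adjusted p = 0.0101). With the length trend removed and all 9 libraries they were 0.23 and 0.25. As with Prox1, control replicate 1 was high and the other two controls were low. The summed level of 10 neuron markers was 7592 to 8328 TPM in PFOS P1-7 and 7412 to 8434 TPM in PFOS P8-14, against 7830, 6434 and 6185 TPM in control replicates 1, 2 and 3, and all 10 markers had positive differences from control in both exposed groups, as did 65.5% of all tested genes in PFOS P1-7 and 62.1% in PFOS P8-14. At an unadjusted p below 0.05 in limma, 5 and 3 of the 10 neuron markers were higher, beside 12.5% and 6.33% of all tested genes. All 10 oligodendrocyte markers and all 12 choroid plexus markers were also higher in both, but none at that threshold. The choroid plexus sum ran from 52.57 to 10590 TPM within the controls alone. The part of these marker differences in the Acsl6 and Acsl3 values was not tested.

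The other 3 synthetase genes overlapped between the exposed and control libraries. Acsl4, which prefers arachidonic acid, had 38.6, 46.6 and 44.3 TPM in PFOS P1-7 and 35.5, 44.1 and 44.7 TPM in PFOS P8-14, against 36.4, 39.7 and 39.2 TPM in control. Acsl5, found at mitochondria and the endoplasmic reticulum, had 32.3, 37.8 and 36.3 TPM in PFOS P1-7 and 29.4, 35.7 and 41.7 TPM in PFOS P8-14, against 37.7, 37.9 and 34.3 TPM in control. Acsbg1, the bubblegum-type synthetase of astrocytes, had 107.6, 124 and 107.0 TPM in PFOS P1-7 and 119, 103 and 116 TPM in PFOS P8-14, against 135, 93.7 and 91.5 TPM in control. For Acsl4 the differences were 0.16 (95% interval -0.08 to 0.40) and 0.10 (-0.14 to 0.34), for Acsl5 -0.05 (-0.32 to 0.23) and -0.05 (-0.33 to 0.22), and for Acsbg1 0.10 (-0.22 to 0.42) and 0.10 (-0.21 to 0.42). Without control replicate 1 the Acsbg1 differences were 0.28 (adjusted p = 0.061 in limma) in PFOS P1-7 and 0.28 (adjusted p = 0.0726) in PFOS P8-14, and over all omissions of 1 library they ran from 0.0018 to 0.28 and from 0.0063 to 0.28. With the length trend removed they were 0.026 and 0.053, those of Acsl4 were -0.030 and -0.038, and those of Acsl5 -0.19 and -0.15. Acsl5 overlaps Zdhhc6 on the opposite strand over 26430 bases. Whether counting used strand is not given in the sources used here, although the library kit keeps it.

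Dbi, which encodes the acyl-CoA binding protein also known as diazepam binding inhibitor, had 909, 936 and 1122 TPM in PFOS P1-7 and 897, 1186 and 936 TPM in PFOS P8-14, against 791, 1146 and 1382 TPM in control. The control libraries alone spanned the whole range of the exposed ones. Its differences were -0.13 ± 0.19 (95% interval -0.56 to 0.30) and -0.11 ± 0.19 (-0.54 to 0.32), which became -0.35 and -0.33 without control replicate 1. Control replicate 1 differed from the mean of control replicates 2 and 3 by -0.67 in log2 for Dbi, by 0.72 for Acsl6 and by 0.535 for Acsbg1. For the other 7 genes this gap ran from -0.14 to 0.17.

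**Figure D2:**
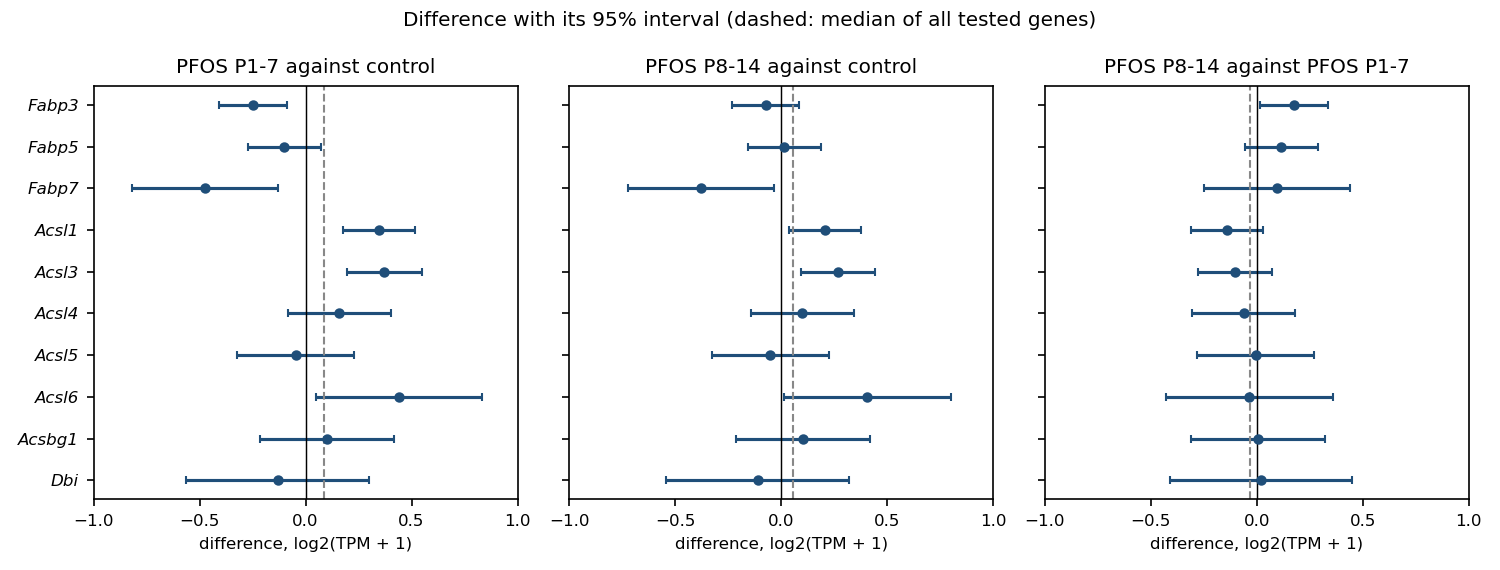
Difference of each gene in log2(TPM + 1) (horizontal axis) with its 95% interval from the limma fit, for PFOS P1-7 against control, PFOS P8-14 against control and PFOS P8-14 against PFOS P1-7, with the median of all tested genes dashed. The intervals of Acsl1, Acsl3, Acsl6 and Fabp7 lie to one side of 0 in both comparisons with control before adjustment over all genes.

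**Figure D3:**
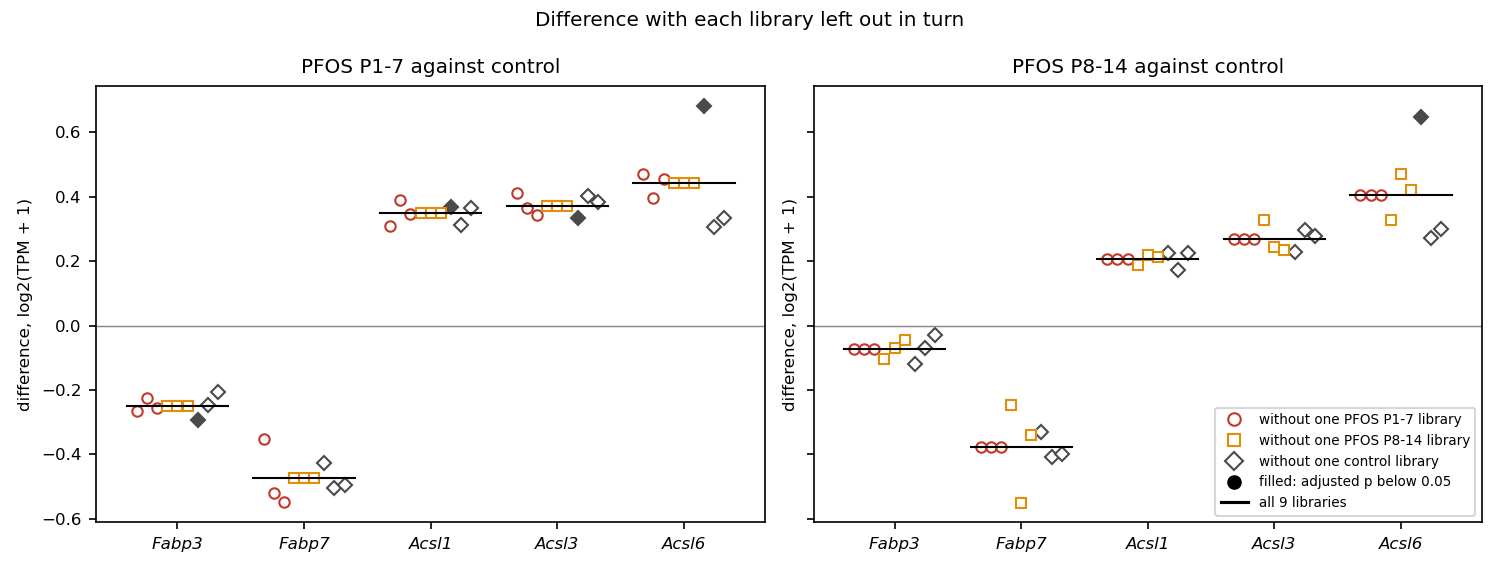
Difference from control in log2(TPM + 1) (vertical axis) for 5 genes with each of the 9 libraries left out in turn, the horizontal bar marking the value with all 9 and filled symbols an adjusted p below 0.05. The filled symbols appear only where control replicate 1 was left out: Fabp3, Acsl1, Acsl3 and Acsl6 in PFOS P1-7 and Acsl6 in PFOS P8-14. In that setting 2658 and 1741 of all 14336 tested genes passed.

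The windows were then compared with each other. In PFOS P8-14 against PFOS P1-7, 0 of 14336 genes passed (0%) in limma, with 158 at an unadjusted p below 0.05 (1.1%, with 0.467% higher and 0.635% lower), among them 1 of the 10 genes, Fabp3. Fabp3 was higher in PFOS P8-14 by 0.18 ± 0.07 (SE, unadjusted p = 0.0343, adjusted p = 0.9998 in limma), and all 3 PFOS P8-14 libraries lay above all 3 PFOS P1-7 libraries. The difference was 0.15 with the length trend removed, and the unadjusted p then no longer fell below 0.05. The same was so for moderation without a variance trend and for leaving out PFOS P1-7 replicate 2 (0.15) or replicate 3 (0.18), or PFOS P8-14 replicate 1 (0.14) or replicate 2 (0.18). A like order of libraries held for Fabp5, at 607.0 ± 21.4 TPM in PFOS P8-14 and 560.2 ± 25.3 TPM in PFOS P1-7 (difference 0.12, 95% interval -0.06 to 0.29). Acsl1 had the opposite order, with every PFOS P8-14 library below every PFOS P1-7 library (difference -0.14, 95% interval -0.31 to 0.03). These were 3 of the 10 genes without overlap (2 higher, 1 lower), beside 6.05% of all tested genes, with 1.9% higher and 4.15% lower. For Acsl3 the difference was -0.10 (-0.28 to 0.07) and for Fabp7 0.10 (-0.25 to 0.44). The remaining 5 genes differed by -0.06 to 0.02, with interval bounds between -0.43 and 0.45.

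Within the fatty acid binding family Fabp7 took a smaller share in the exposed libraries than in the controls, and Fabp5 a larger one. Fabp7 made up 13.6 ± 1.49% of the summed TPM of the 3 genes in PFOS P1-7 (11.9 to 14.8%) and 13.3 ± 2.34% in PFOS P8-14 (11.3 to 15.9%), against 16.4 ± 0.392% in control (16.1 to 16.9%). The 6 exposed libraries all lay below the controls. Fabp5 took 60.8 ± 1.09% in PFOS P1-7 (59.7 to 61.9%) and 60.2 ± 0.843% in PFOS P8-14 (59.3 to 61.0%), against 56.9 ± 2.17% in control (54.9 to 59.2%). The Fabp3 share overlapped, at 25.6%, 26.5% and 26.6% in PFOS P1-7, PFOS P8-14 and control. A share compares these 3 genes of like length with each other within a library, and it shows unequal levels and not which gene moved. Among the 6 synthetase genes, Acsl6 took 29.2 ± 0.516% in PFOS P1-7 and 29.6 ± 2.80% in PFOS P8-14, against 26.1 ± 4.66% in control, and Acsl3 took 26.7%, 25.7% and 25%. The 6 genes summed to 528.8 ± 24.9 TPM in PFOS P1-7 and 510.5 ± 15.7 TPM in PFOS P8-14, against 439.9 ± 55.4 TPM in control, where control replicate 1 reached 503.8 TPM. The shares and sums were computed as descriptions and not tested.

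**Figure D4:**
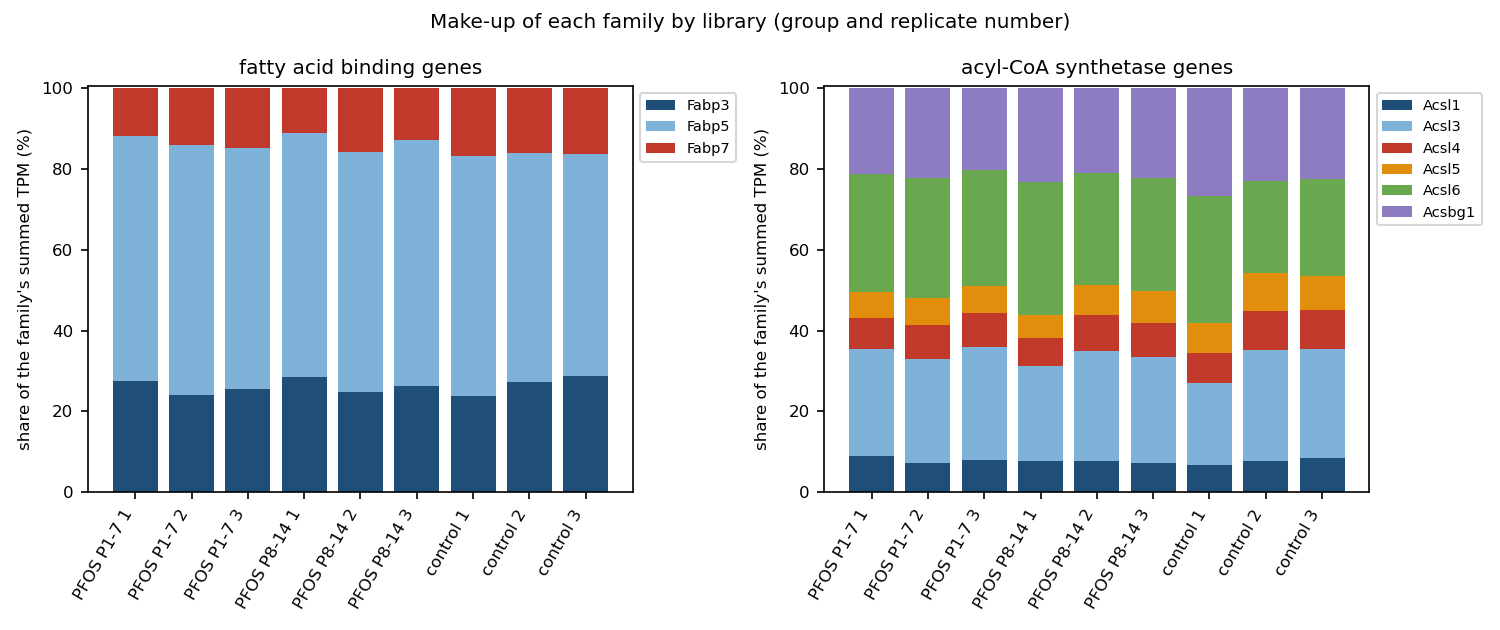
Share of each gene in the summed TPM of its family (vertical axis, percent) in each of the 9 libraries, for the 3 fatty acid binding genes (left) and the 6 synthetase genes (right). The Fabp7 segment is 11.3 to 15.9% in the exposed libraries and 16.1 to 16.9% in the controls.

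Genes that handle fatty acids around these families were read from 9 lists of 131 genes, of which 105 were tested. None passed an adjusted p of 0.05 in limma. In PFOS P1-7 there were 14 higher and 4 lower at an unadjusted p below 0.05, or 17.1% of the listed genes beside 18.3% of all tested genes, and the median difference was 0.10 beside 0.09 over all. In PFOS P8-14 there were 7 higher and 1 lower, or 7.62% beside 11%, and the median was 0.08 beside 0.06. In PFOS P8-14 against PFOS P1-7 none had an unadjusted p below 0.05. The listed genes as a whole thus stood near the background. Their differences were not recomputed with the length trend removed or without control replicate 1.

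The acyl-CoA thioesterases, which reverse the synthetase reaction, had 4 higher and 1 lower of 12 tested in PFOS P1-7 and 2 higher in PFOS P8-14 at an unadjusted p below 0.05, or 41.7% beside 18.3% of all tested genes and 16.7% beside 11%. It is 1 of 9 lists and is described for its leading genes, several of which are close copies. Acot4, a peroxisomal thioesterase, led the list in both comparisons, with 3.25, 2.81 and 2.81 TPM in PFOS P1-7 and 3.40, 2.69 and 2.34 TPM in PFOS P8-14, against 1.77, 1.25 and 1.31 TPM in control. All 6 exposed libraries were above the controls. These values, 1.25 to 3.40 TPM, are low and near the filter of 1 TPM. The longest annotated transcript of Acot4 is 6203 bases, and the part of the length trend in its difference was not tested. The difference was 0.70 ± 0.16 (SE, unadjusted p = 0.00144, adjusted p = 0.181 in limma) in PFOS P1-7 and 0.64 ± 0.16 (unadjusted p = 0.00264, adjusted p = 0.424) in PFOS P8-14. The others higher in PFOS P1-7 were Acot3, Acot5 and Acot6, close copies of Acot4 in 1 gene cluster, so reads could be split among them and their values are uncertain. Acot7, the abundant neuronal thioesterase, had a difference of -0.23 in PFOS P1-7 (adjusted p = 0.220), at 485.9 ± 36.9 TPM against 569.2 ± 38.9 TPM in control.

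Among the regulators of lipid synthesis, Srebf2, the main activator of cholesterol genes, had 133, 129 and 122 TPM in PFOS P1-7 and 126, 115 and 129 TPM in PFOS P8-14, against 124, 92.3 and 93.6 TPM in control. Control replicate 1 lay among the exposed libraries, as for Acsl6. Srebf1, the activator of fatty acid synthesis genes, averaged 27.7 ± 3.21 TPM in PFOS P1-7 and 28.1 ± 5.74 TPM in PFOS P8-14, against 21.3 ± 1.84 TPM in control. The Srebf2 differences were 0.32 (adjusted p = 0.220 in limma) in PFOS P1-7 and 0.27 (adjusted p = 0.443) in PFOS P8-14, and those of Srebf1 0.36 (adjusted p = 0.244) and 0.37 (adjusted p = 0.435). Rxrg, a retinoid receptor, led the exposed groups' comparison with each other in this list at 0.31 (unadjusted p = 0.201).

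In the uptake list, Vldlr, a lipoprotein receptor, differed from control by 0.25 (unadjusted p = 0.00619, adjusted p = 0.198 in limma) in PFOS P1-7 and 0.17 (adjusted p = 0.443) in PFOS P8-14. It averaged 31.7 ± 1.14 TPM in PFOS P1-7 and 29.9 ± 0.728 TPM in PFOS P8-14, against 26.4 ± 0.832 TPM in control. Slc27a4, a fatty acid transport protein with synthetase activity, was at -0.20 (adjusted p = 0.244) and -0.10 (adjusted p = 0.591). In the mitochondrial import list Cpt1a, the liver-type carnitine palmitoyltransferase and the entry step of oxidation, averaged 25.02 ± 4.90 TPM in PFOS P1-7 and 22.4 ± 4.60 TPM in PFOS P8-14, against 17.1 ± 3.93 TPM in control, with adjusted p = 0.230 and 0.478. Its brain-type relative Cpt1c stood at 113.2 ± 7.58 TPM in PFOS P1-7 and 119.7 ± 2.96 TPM in PFOS P8-14, against 111.1 ± 8.97 TPM in control.

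The genes that led the other lists in any comparison differed from control by amounts that likewise did not pass the threshold. Agpat9, Elovl6, Acbd3 and Acss2 led only in PFOS P8-14 against PFOS P1-7. In acyl transfer, Mboat2, a lysophospholipid acyltransferase, differed by 0.40 (adjusted p = 0.2099 in limma) in PFOS P1-7 and 0.28 (adjusted p = 0.460) in PFOS P8-14. Dgat1, which makes triglycerides, differed by -0.27 (adjusted p = 0.282) in PFOS P1-7 and -0.31 (adjusted p = 0.443) in PFOS P8-14. In PFOS P1-7 the differences were 0.16 for Agpat9, a glycerol-3-phosphate acyltransferase, 0.25 for Fasn, the fatty acid synthase, 0.41 for Acacb, an acetyl-CoA carboxylase, and 0.13 for the elongase Elovl6. In PFOS P8-14 they were -0.04 for Agpat9, 0.18 for Fasn, 0.49 for Acacb and -0.02 for Elovl6. Among the other acyl-CoA binding genes and synthetases, PFOS P1-7 differed by -0.28 for Acbd4, 0.21 for Acbd3, 0.04 for Acbd6, 0.15 for Acsf2 and -0.06 for the acetyl-CoA synthetase Acss2. PFOS P8-14 differed by -0.17 for Acbd4, 0.03 for Acbd3, 0.17 for Acbd6, 0.27 for Acsf2 and 0.03 for Acss2. Rbp2 and Crabp2, retinoid carriers of the same protein superfamily as the FABPs, were at the edge of detection with 0.00 to 3.12 TPM and 0.51 to 8.03 TPM over the 9 libraries. Acacb and Agpat9 were also low, at 1.31 to 4.46 TPM and 1.10 to 2.02 TPM. The 95% intervals of Acacb were wide, at -0.24 to 1.055 in PFOS P1-7 and -0.16 to 1.13 in PFOS P8-14. The adjusted p-values of these leading genes were at least 0.2099 in PFOS P1-7 and 0.440 in PFOS P8-14.

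**Figure D5:**
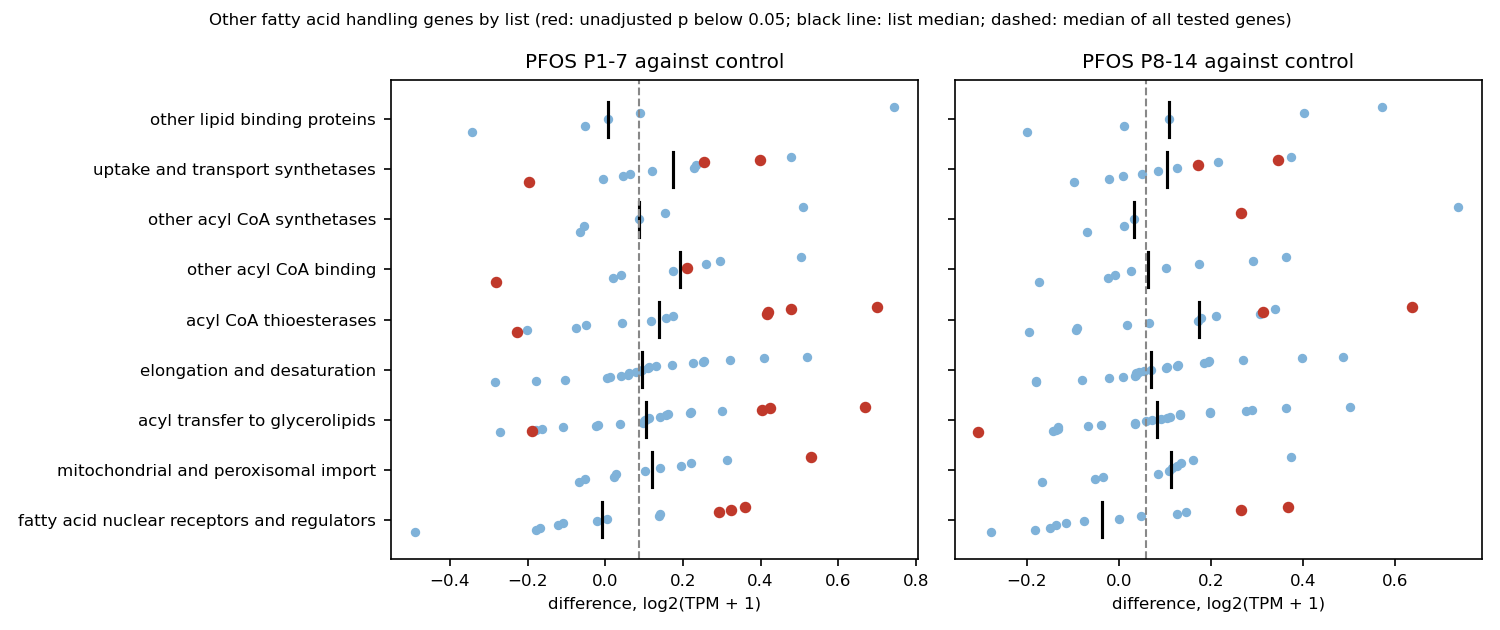
Difference in log2(TPM + 1) (horizontal axis) of each tested gene in the 9 lists around the fatty acid binding and synthetase families, for PFOS P1-7 against control (left) and PFOS P8-14 against control (right), with list medians as black lines and the median of all tested genes dashed. Red points had an unadjusted p below 0.05, 18 genes on the left and 8 on the right.

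The genes whose course over the 9 libraries was most like that of Acsl3, by the mean absolute difference of centred log2 values, were Zfp131 (0.0383), Ercc6l2 (0.0395) and Cir1 (0.0421), where the median tested gene was at 0.186. For Acsl1 they were Aldh6a1 (0.0329), Tgfb2 (0.0416) and Lacc1 (0.0424), with the median gene at 0.162. For Fabp3 they were Capns1 (0.0408), Gyg (0.0415) and Endog (0.0436), with the median gene at 0.179. Within the 10 genes the closest pair was Acsl3 and Acsl4 (0.0888), Acsl1 and Acsl3 were 0.105 apart, and Fabp7 and Acsl6 were the farthest pair (0.433). The libraries share their group, their length trend and their cell make-up, so likeness of course is a description only.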

How the data were processed

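Hippocampal RNA of 9 samples was sequenced from poly(A)-selected, stranded libraries, per the labels' protocols. The authors deposited 1 table of TPM per gene symbol, rounded to 2 decimals, for which the submitters' processing notes list RSEM 1.3.3, STAR 2.5.3a, fastp 0.21.0, bcl2fastq and the build mm10. The annotation is not given in the sources used here. Depth is unknown, since TPM keep none, and no counting interval was computed.

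Groups came from the sample titles. A gene was tested where 3 or more of the 9 samples reached 1 TPM. One model with a mean per group was fitted to log2(TPM + 1) in limma 3.58.1 (R 4.3.3), with a variance trend, two-sided tests and Benjamini-Hochberg adjustment over all 14336 genes at 0.05. A pseudocount of 1 understates the change of low genes. The procedure was tested on simulated data with independent noise per gene. These held no length trend and no library that stood apart, so the test does not cover those features. Named were all 10 genes, the listed gene with the smallest unadjusted p per list and comparison, and the 3 genes closest in course to each of the 3 leading genes. One gene that this rule selects is not reported here. Acot3, Acot5 and Acot6 were named after their values were seen. The genes and lists were chosen with earlier results of these data known. Lengths are of the longest protein-coding GENCODE transcript, matched for 93.9% of tested genes, and the length trend was removed per library by loess (span 0.4). The 23 alternatives covered pseudocounts, filters, scalings, covariates, weights, moderation, the replicate number and each library left out. Gene positions and promoters are from RefSeq on GRCm38.p6.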

Additional observations from a re-analysis of the deposited data

How the results depend on the processing

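The number of genes passing an adjusted p of 0.05 in limma depended on control replicate 1. With 1 library left out at a time it ranged from 0 to 2658 of 14336 genes in PFOS P1-7 against control and from 0 to 1741 of 14336 in PFOS P8-14 against control, with 0 to 4 and 0 to 1 of the 10 genes, and the highest counts came without control replicate 1. The other 8 omissions gave 0 genes in both comparisons, except 1 gene in PFOS P1-7 without PFOS P8-14 replicate 1. Array weights gave 2914 and 1053 of all 14336 genes, with 4 (Fabp3, Acsl1, Acsl3, Acsl6) and 2 (Acsl3, Acsl6) of the 10. The weights came from the same data and were lowest for control replicate 1 (0.248). This setting is therefore not independent of leaving that library out. Leaving out control replicate 1 and removing the length trend, chosen after seeing the data, gave 565 and 332 of 13457 genes and 1 of the 10 in each, Acsl6 at 0.38 (adjusted p = 0.0297) and 0.40 (adjusted p = 0.0328). Fabp3 in PFOS P1-7 was then at -0.08 (adjusted p = 0.557 in limma). The astrocyte covariate gave 3 genes in PFOS P8-14, none of them among the 10. With the length trend removed, 2 and 0 of the 10 genes had an unadjusted p below 0.05 in PFOS P1-7 and PFOS P8-14, and 0 in PFOS P8-14 against PFOS P1-7. Beside these stood 1687, 1303 and 164 of the 13457 genes tested in that setting. Small differences turned sign. In PFOS P1-7 against control, removing the length trend gave 0.0089 for Fabp5, -0.030 for Acsl4 and 0.057 for Dbi, and with control replicate 1 also left out 0.13 for Fabp5 and -0.15 for Acsl4. Dbi was 0.0083 with quantile normalization and 0.11 with the astrocyte covariate, which gave -0.062 for Acsbg1, and Acsl5 was 0.060 with the choroid plexus covariate. In PFOS P8-14 against control, removing the length trend gave 0.039 for Fabp3, -0.038 for Acsl4 and 0.046 for Dbi, and with control replicate 1 also left out 0.071 for Fabp3 and -0.16 for Acsl4. Fabp5 was -0.041 with median-of-ratios scaling and -0.011 with the astrocyte covariate, Dbi 0.040 with quantile normalization and 0.035 with the astrocyte covariate, and Acsl5 0.048 with the choroid plexus covariate. With each library left out, Acsl5 ran from -0.094 to 0.017 and Dbi from -0.35 to 0.049 in PFOS P1-7, Fabp5 from -0.025 to 0.074, Acsl5 from -0.17 to 0.075 and Dbi from -0.33 to 0.069 in PFOS P8-14, and Fabp7 from -0.075 to 0.23 in PFOS P8-14 against PFOS P1-7. The cause was not tested. Acsl1, Acsl3, Acsl6 and Fabp7 in both comparisons with control, and Fabp3 in PFOS P1-7, kept their sign under all 23 alternatives. Several alternatives cannot move a difference, as they change only the filter, the variance model or a library outside the comparison. In PFOS P1-7 the differences ran from 0.19 to 0.39 for Acsl1, 0.16 to 0.41 for Acsl3 and 0.23 to 0.68 for Acsl6. Those of Fabp7 ran from -0.56 to -0.23 and those of Fabp3 from -0.33 to -0.08. In PFOS P8-14 they ran from 0.09 to 0.23 for Acsl1 and 0.09 to 0.33 for Acsl3. Acsl6 ran there from 0.25 to 0.65 and Fabp7 from -0.55 to -0.15. The replicate numbers are not known to pair the samples, as same-numbered libraries correlated at -0.47 to 0.53. A fit with the replicate block gave 0 genes in each comparison, with 3112, 2120 and 268 at an unadjusted p below 0.05, and changed no call.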
